A study of Mus musculus with 6 samples.

Results

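Thy1, Itga6, Itgb1, Cd9, Epcam, Tspan8, Cd24a, Mcam and Cdh1 encode proteins of the cell surface that serve to sort spermatogonial stem cells or hold them in place. These 9 genes were chosen by name, and each was found once by its Ensembl identifier among the 51912 genes of the count table. All 9 passed the filter on low counts, as did 15240 genes in all. The RNA came from testis cells of C57BL/6J mice, taken 4 days after birth and sorted by flow cytometry for surface THY1 and against c-KIT, and was sequenced by Smart-Seq2, a full-length cDNA method for small inputs. Libraries WT1, WT2 and WT3 were wild type. KO1, KO2 and KO3 came from Bud31-vKO mice, a Cre-loxP deletion of the spliceosome gene Bud31, and are called the knockout here. The sources used here do not give the promoter that drives Cre, the number of cells in a library, or whether each library was a separate animal, so p-values measure the spread between these libraries, which may be technical. The table's columns carry the letters C and T, which were read by convention as wild type and knockout.

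A stem cell fraction is sorted with antibodies to a few surface molecules. THY1 is a small glycolipid-anchored glycoprotein that also marks fibroblasts and T cells. Integrins are pairs of an alpha and a beta chain that bind the basement membrane, and the alpha6 beta1 pair binds laminin. CD9 and TSPAN8 are tetraspanins, membrane proteins that gather integrins and other partners into clusters. EPCAM and E-cadherin, the product of Cdh1, join cells to each other. CD24 and MCAM are glycoproteins found on several kinds of stem cell, and MCAM is also well known on endothelial and perivascular cells.

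The 100 bases before the gene start are shown for Itgb1, whose level varied least between libraries, and for Epcam, which had 1 low library. They are RefSeq sequences on GRCm38.p6, plus strand, at chr8:128685554-128685653 and chr17:87635879-87635978, and capitals mark a match to the GC box, a motif known to bind SP1.
Itgb1: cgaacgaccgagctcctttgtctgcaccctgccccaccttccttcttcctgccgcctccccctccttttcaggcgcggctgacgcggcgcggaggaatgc
Epcam: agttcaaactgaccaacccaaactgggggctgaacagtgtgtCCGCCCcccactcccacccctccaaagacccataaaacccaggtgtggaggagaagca
The GC box was searched as GGGCGG on both strands, and the Epcam match lies on the minus strand. The promoter table held 5 of the 9 genes, with 1 GC box in Epcam, 4 in Mcam, 2 in Cd9 and none in Itgb1 or Tspan8. By GENCODE, the windows of Mcam and Tspan8 lie wholly inside the gene, downstream of its annotated start, and 31 bases of the Cd9 window do. Over all 32851 windows of this length, 24.7% held a GC box. The CCAAT box (CCAAT) was in 18.9% of all windows and in none of the 5 genes. The TATA box (TATAAA) was in 5.56% and the E-box (CACGTG) in 3.17%, and neither was in the 5 genes. A match describes letters and does not show binding.

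Totals lay between 13240704 and 18744466 reads. Levels are in CPM, read counts scaled by library size, and 3 reads, taken as the floor of detection, equalled 0.166 to 0.222 CPM, for counting error only. WT3 and KO2 stood apart, with reads for 13762 and 12464 genes against 18171 to 22300 in the other 4. Bud31 itself was lower in each knockout library (47.2, 67.6 and 80.4 CPM) than in each wild type library (138, 96.8 and 158 CPM), the direction of the labels.

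The labelled cell type was checked by adding up the CPM of marker lists. The 16 germ cell genes, led by Dazl and Ddx4, summed to 5015, 4689 and 4160.3 CPM in WT1 to WT3 and 2305, 2674 and 3411 CPM in KO1 to KO3. The 13 stromal genes, led by the collagens Col1a1 and Col3a1, summed to 11553, 12114 and 23865 CPM in WT1 to WT3 and 13371, 9879 and 16262 CPM in KO1 to KO3. The stromal sum was 2.30 to 5.80 times the germ cell sum in these CPM, which are not scaled by gene length, and no stromal gene was at 0 in any library. Markers of stem spermatogonia, led by Etv5 and Gfra1, summed to 889, 1298 and 895 CPM in WT1 to WT3 and 583, 751 and 963 CPM in KO1 to KO3. Other cell types outside the germ line had highest sums of 1650.0 CPM for Sertoli markers (KO1) and 979.8 CPM for myoid markers (WT2). Lymphoid markers reached at most 541 CPM (KO2), endothelial markers 335 CPM (KO3) and erythroid markers 216 CPM (KO3). Leydig cell markers reached at most 67.6 CPM (KO1) and macrophage markers at most 212 CPM (WT1). Germ cell sums did not overlap between genotypes, and stromal sums did. In bulk samples, fewer cells of a type and less RNA per cell cannot be told apart.

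The 9 surface genes together summed to 1356, 1373 and 1063 CPM in WT1 to WT3 and 1109.7, 1442 and 978 CPM in KO1 to KO3. KO2 had the highest sum of surface genes and the second lowest germ cell sum, and WT3 had the highest stromal sum and the second lowest sum of surface genes.

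**Figure D1:**
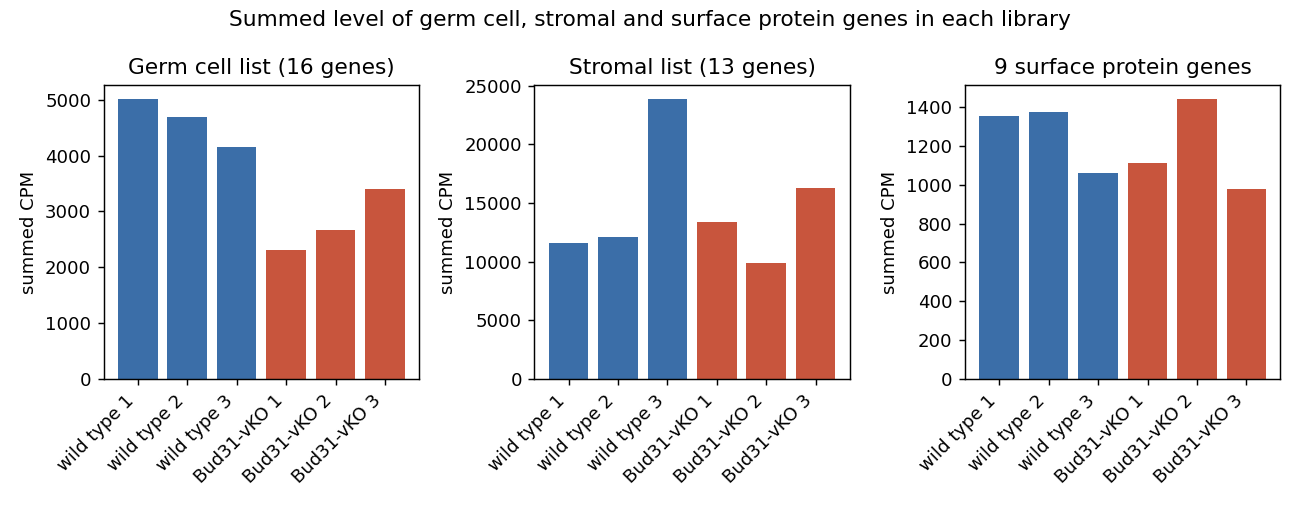
Summed CPM of the 16 germ cell genes, the 13 stromal genes and the 9 surface protein genes, with 1 bar per library (blue wild type, red Bud31-vKO). The lowest wild type germ cell bar (4160.3 CPM) stands above the highest knockout bar (3411 CPM), while the genotypes overlap in the other panels.

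On GRCm38, Thy1 (ENSMUSG00000032011) lies on chromosome 9 from 44043384 to 44048579 and Mcam (ENSMUSG00000032135) on chromosome 9 from 44134469 to 44142727. Itga6 (ENSMUSG00000027111) lies on chromosome 2 from 71745616 to 71858416 and Itgb1 (ENSMUSG00000025809) on chromosome 8 from 128685654 to 128733200. Cd9 (ENSMUSG00000030342), the single gene of the 9 on the minus strand, lies on chromosome 6 from 125460266 to 125494791, and Tspan8 (ENSMUSG00000034127) on chromosome 10 from 115816832 to 115849893. Epcam (ENSMUSG00000045394) lies on chromosome 17 from 87635979 to 87651129, Cdh1 (ENSMUSG00000000303) on chromosome 8 from 106603351 to 106670246 and Cd24a (ENSMUSG00000047139) on chromosome 10 from 43578284 to 43584265. Exons of Cd9, Mcam and Tspan8 overlap a gene on the opposite strand over 218, 17 and 4 bases, where reads cannot be told apart unless counting used strand.

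Levels of different genes were compared per length, as CPM per kilobase of annotated exon (mean ± SD over 6 libraries). Cd9 was highest at 137 ± 52.6, followed by Itgb1 at 83.8 ± 15.1, Mcam at 70.4 ± 35.3 and Epcam at 65.4 ± 24.95 CPM per kilobase. Cd24a came next at 26.9 ± 22.6 CPM per kilobase. The low end held Itga6 at 9.996 ± 6.27, Cdh1 at 7.41 ± 6.07, Tspan8 at 6.42 ± 4.91 and Thy1 at 4.96 ± 2.69 CPM per kilobase. Thy1, the molecule of the positive gate, thus had the lowest mean RNA per length of the 9, but was itself lowest in WT1 and WT2 alone. Tspan8 was lower in WT3 (0 against 5.40), Cdh1 in KO1 (2.65 against 3.93) and KO3 (2.28 against 10.1), and Itga6 in KO2 (1.29 against 2.43). Of the 8 neighbouring pairs in this order, Epcam over Cd24a alone had a mean log2 ratio (1.40) above its SD over libraries (1.38). Epcam was above Cd24a in 4 of 6 libraries, and Cd9 above Itgb1, Cd24a above Itga6 and Itga6 above Cdh1 in 5 of 6. No neighbouring pair kept its order in all 6 libraries, and these differences were not tested.

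Thy1 measured 13.2, 10.5 and 16.2 CPM in WT1 to WT3 and 11.8, 7.28 and 30.2 CPM in KO1 to KO3, from 102 to 408 reads. KO3 was the highest and KO2 the lowest, so the wild type values lay inside the knockout range. Its log2 fold change, knockout over wild type, was 0.30 (standard error 1.05, 95% interval -2.13 to 2.73), and -0.48 without KO3. KO3 also had the highest sums of 10 endothelial markers (335 CPM, against 11.5 to 208) and 8 erythroid markers (216 CPM, against 1.07 to 74.5). The stromal sum was lowest in KO2 (9879 CPM), as Thy1 was, and highest in WT3 (23865 CPM), with KO3 at 16262 CPM. The part of these lists in the Thy1 values was not tested. The 10 lymphoid markers, of a lineage that carries THY1, were highest in KO2 at 541 CPM, where Thy1 was lowest. This list was led by Ptprc and Klrd1, and its part in the Thy1 values was not tested either.

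Kit, the receptor of differentiating spermatogonia used for the negative gate, measured 28.9, 62.97 and 0.349 CPM in WT1 to WT3 and 24.05, 0.5 and 13.97 CPM in KO1 to KO3. The 2 values near 0 were in WT3 and KO2, the libraries with few genes detected, from 6 and 7 reads. In the other 4 libraries Kit RNA was present, from 189 to 1140 reads.

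Itgb1, the beta chain shared by many integrin pairs, measured 268, 419 and 409 CPM in WT1 to WT3 and 292, 341 and 322 CPM in KO1 to KO3. The highest library held 1.56 times the lowest, and the knockout values lay inside the wild type range. Its log2 fold change was -0.20 (standard error 0.29, 95% interval -0.87 to 0.46). Among 8 integrin beta chains Itgb1 had the most RNA per length in all 6 libraries, with 64.2% to 89.2% of their total. Itgb4, the other known beta partner of alpha6, reached at most 0.738 CPM per kilobase and had no reads in WT3 and KO2.

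Itga6, the laminin-binding alpha chain used to enrich stem cells, measured 157, 67.7 and 138 CPM in WT1 to WT3 and 118, 11.6 and 48.4 CPM in KO1 to KO3. KO2 and KO3 were below every wild type library, and KO1 lay within the wild type range. The log2 fold change, the largest in size of the 9, was -1.03 (standard error 0.77, 95% interval -2.82 to 0.77), and it ran from -2.00 without KO1 to -0.53 without KO2. Per length, Itga6 stood at 0.0154 (KO2) to 0.265 (WT1) times the level of its partner Itgb1. Among only the 10 alpha chains listed for this comparison, it was first in WT1, WT2 and WT3, with 42.1%, 22.3% and 28.3% of their total. Itga9 was close behind in WT2, at 21.2%. In KO1 to KO3 the Itga6 share was 22.3%, 3.04% and 7.28%, so that WT2 and KO1 were nearly equal and KO2 and KO3 lower. The share also depends on the other chains: Itga3 held 55.6% of the total in KO2 and Itga5 69.5% in KO3. Itga6 itself stood at 7.50 CPM per kilobase in WT2, 1.29 in KO2 and 5.36 in KO3. The Itga6 share was not tested between genotypes.

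The other integrin genes took no common direction. Of 14 further subunits tested, 6 had a log2 fold change above 0 and 8 below, with a median of -0.26. Itga3 and Itga8 are shown because they had the 2 smallest p-values. They alone of the 14 did not overlap, 1 higher and 1 lower, beside 4.76% and 6.39% of all genes. Itga3, a laminin-binding alpha chain like Itga6, measured 14.2, 16.9 and 2.79 CPM in WT1 to WT3 and 84.4, 135 and 39.2 CPM in KO1 to KO3, without overlap, and its log2 fold change was 2.93 (standard error 0.85) with an unadjusted p of 0.00904 and an adjusted p of 0.9997 by edgeR. Itga8, an alpha chain that binds nephronectin, measured 11.5, 19.3 and 27.6 CPM in WT1 to WT3 and 5.70, 0 and 0 CPM in KO1 to KO3, with no reads in KO2 and KO3. Laminin chains, the ligands of alpha6 beta1, were above 0 in 5 and below in 4 of 9 tested, with a median of 0.10. Their summed CPM was led by Lamb1 and Lamc1. It was 731, 564 and 687 CPM in WT1 to WT3 and 823, 1265 and 1012 CPM in KO1 to KO3, without overlap. Lamb1 measured 281 ± 28.1 CPM in wild type and 629 ± 262 CPM in the knockout without overlap (SD, n = 3 each). Integrin adaptors were above 0 in 5 and below in 3 of 8 tested, with a median of 0.082. Pxn, a scaffold of focal adhesions, measured 33.1 ± 11.2 CPM in wild type and 76.5 ± 15.9 CPM in the knockout, and Fermt2, a kindlin that activates integrins, 52.3 ± 9.53 CPM in wild type and 74.3 ± 19.4 CPM in the knockout (SD, n = 3 each). No gene of these 3 lists passed the test. Lamb1, Pxn and Fermt2 are likewise shown for the smallest p-values of their lists. Of the laminins, 1 of 9 tested did not overlap, and of the adaptors 1 of 8, both higher in the knockout.

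Cd9 measured 445, 175 and 262 CPM in WT1 to WT3 and 273, 357 and 165 CPM in KO1 to KO3. The genotypes overlapped, with WT1 highest and KO3 lowest. For Cd9 the log2 fold change was -0.15 (standard error 0.44, 95% interval -1.17 to 0.87), and it was above 0 without WT1 (0.28) or without KO3 (0.094). Per length, Cd9 was first of 24 tetraspanins in 4 libraries and second in the other 2, with 18.3% to 38.98% of their total.

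Tspan8, a tetraspanin reported on a subset of undifferentiated spermatogonia, measured 17.8, 7.24 and 0 CPM in WT1 to WT3 and 12.4, 22.6 and 5.47 CPM in KO1 to KO3. WT3 had no read, where 3 reads would equal 0.175 CPM, and the other libraries had 74 to 317 reads. The log2 fold change, the least certain of the 9, was 0.70 (standard error 1.89, 95% interval -3.68 to 5.07). It was 0.12 without KO2 and 1.89 without WT1. In the 5 libraries with Tspan8 reads, Cd9 stood at 13.1 (KO2) to 25.1 (KO3) times Tspan8 per length.

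Of 21 other tetraspanins tested, 12 had a log2 fold change above 0 and 9 below, with a median of 0.18. Cd63, a tetraspanin of late endosomes, measured 303 ± 102 CPM in wild type and 524 ± 168 CPM in the knockout, and Tspan15, known as a partner of the protease ADAM10, 1.21 ± 1.27 CPM in wild type and 26.4 ± 28.1 CPM in the knockout (SD, n = 3 each), both with overlap. The 4 genes of membrane partners all had values above 0, with a median of 0.24. Of these, Cd47 measured 135 ± 12.8 CPM in wild type and 253 ± 169.8 CPM in the knockout and Ptgfrn, a direct partner of CD9, 47.2 ± 29.9 CPM in wild type and 61.7 ± 21.8 CPM in the knockout (SD, n = 3 each). No gene of these lists passed the test.

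**Figure D2:**
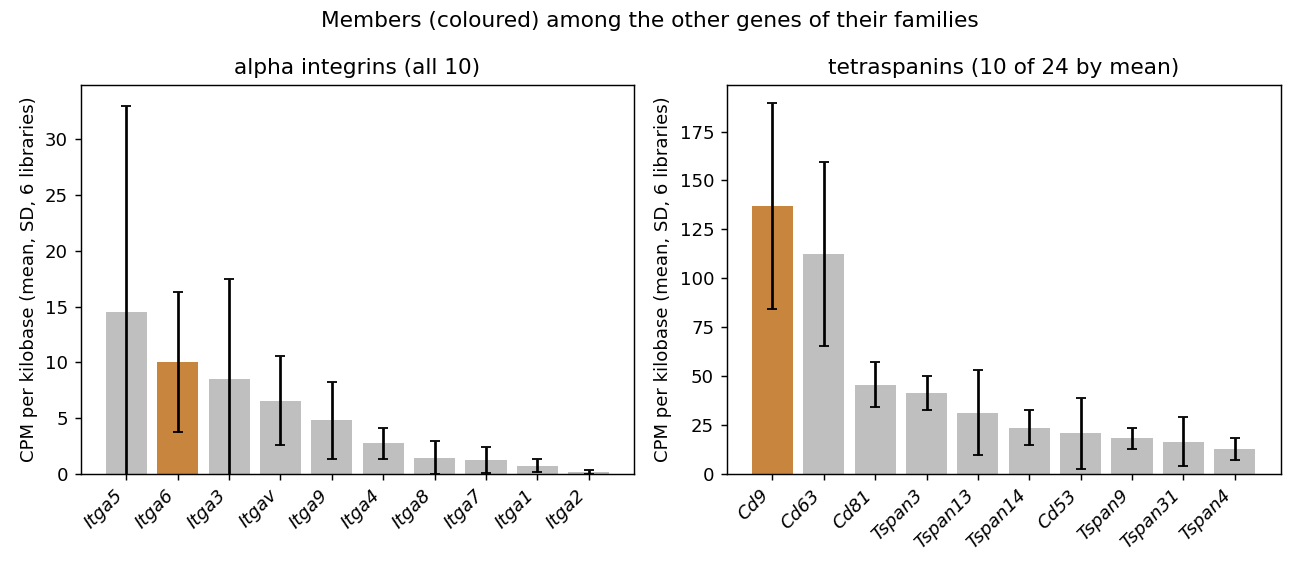
Mean CPM per kilobase of exon over 6 libraries with SD (bars stop at 0), for 10 integrin alpha chains and the 10 highest of 24 tetraspanins, with Itga6 and Cd9 coloured. Cd9 heads the tetraspanins at 137 CPM per kilobase, and Itga6 stands second to Itga5 (14.5 CPM per kilobase), whose SD exceeds its mean.

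Epcam, an adhesion molecule of germ cells and epithelia, measured 169.8, 172 and 33.9 CPM in WT1 to WT3 and 179, 149.7 and 158 CPM in KO1 to KO3. WT3 stood alone at the low end, and the other 5 libraries lay close together. Between genotypes the log2 fold change was 0.37 (standard error 0.57, 95% interval -0.96 to 1.71), and -0.054 without WT3. Of 5 tested genes of EPCAM partners and relatives, 4 were above 0 and 1 below, with a median of 0.45, and none passed the test. Spint2, an inhibitor of proteases that can cleave EPCAM, measured 338, 166 and 70.2 CPM in WT1 to WT3 and 376, 188 and 219 CPM in KO1 to KO3, lowest in WT3 as Epcam was. Cd44, a hyaluronan receptor, measured 47.7 ± 33.9 CPM in wild type and 31.6 ± 16.02 CPM in the knockout (SD, n = 3 each).

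Cdh1 measured 22.3, 30.99 and 42.6 CPM in WT1 to WT3 and 12.1, 84.99 and 10.4 CPM in KO1 to KO3. KO2 was above and KO1 and KO3 below every wild type library. Its log2 fold change was 0.16 (standard error 0.95, 95% interval -2.04 to 2.37), and -1.49 without KO2. Per length, Cdh1 ranked second of 7 cadherins by its mean, with 6.54% to 57.6% of their total. That mean leaned on KO2, at 18.6 CPM per kilobase against 2.28 (KO3) to 9.32 (WT3) in the others. In single libraries the rank of Cdh1 ran from 1 to 4. Cdh11, a mesenchymal cadherin, ranked first and measured 147 ± 50.4 CPM in wild type and 65.5 ± 36.2 CPM in the knockout (SD, n = 3 each), with WT3 and KO3 nearly equal. Ctnnb1, the beta-catenin that binds the cadherin tail, measured 266 ± 36.99 CPM in wild type and 177 ± 38.998 CPM in the knockout (SD, n = 3 each), with WT2 and KO3 nearly equal. Of 11 cadherin and catenin genes other than Cdh1, 6 were above 0 and 5 below, with a median of 0.60, and none passed the test. Their summed CPM, led by Ctnnb1 and Ctnna1, went the other way. The sum was 699, 725 and 760 CPM in WT1 to WT3 and 517, 513 and 647 CPM in KO1 to KO3, without overlap.

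Cd24a measured 39.01, 47.6 and 59.6 CPM in WT1 to WT3 and 55.1, 186 and 28.4 CPM in KO1 to KO3. KO2 was the highest and KO3 the lowest, as for Cdh1. Its log2 fold change was 0.88 (standard error 0.70, 95% interval -0.75 to 2.52), and -0.21 without KO2. KO2 also had the highest sum of 10 lymphoid markers, led by Ptprc and Klrd1, at 541 CPM against 13.1 to 129.9 CPM in the others, and its part in the Cd24a and Cdh1 values was not tested. Erythroid markers, of another lineage that carries CD24, summed to 1.07 CPM in KO2, with 7 of 8 at 0. KO2 had the fewest genes detected (12464), and the part of erythroid markers in the Cd24a values was not tested.

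Mcam measured 222, 443 and 101 CPM in WT1 to WT3 and 157, 282 and 211 CPM in KO1 to KO3. The wild type libraries held both the highest and the lowest value. For Mcam the log2 fold change was -0.24 (standard error 0.53, 95% interval -1.47 to 0.98), and it ran from -0.60 without WT3 to 0.41 without WT2. The 10 endothelial markers, led by Egfl7 and Cdh5, summed to 208, 49.3 and 11.5 CPM in WT1 to WT3 and 164, 62.1 and 335 CPM in KO1 to KO3, with 8 of 10 at 0 in WT3 and 7 in KO2. WT2, the library with the most Mcam, had the second lowest endothelial sum. It also had the highest sums of markers of stem spermatogonia (1298 CPM, against 583 to 963) and of differentiating spermatogonia (1142 CPM, against 509 to 993). Myoid markers, led by Acta2 and Myl9, were highest there too (979.8 CPM, against 308 to 685). The part of these 3 lists in the Mcam value was not tested.

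**Figure D3:**
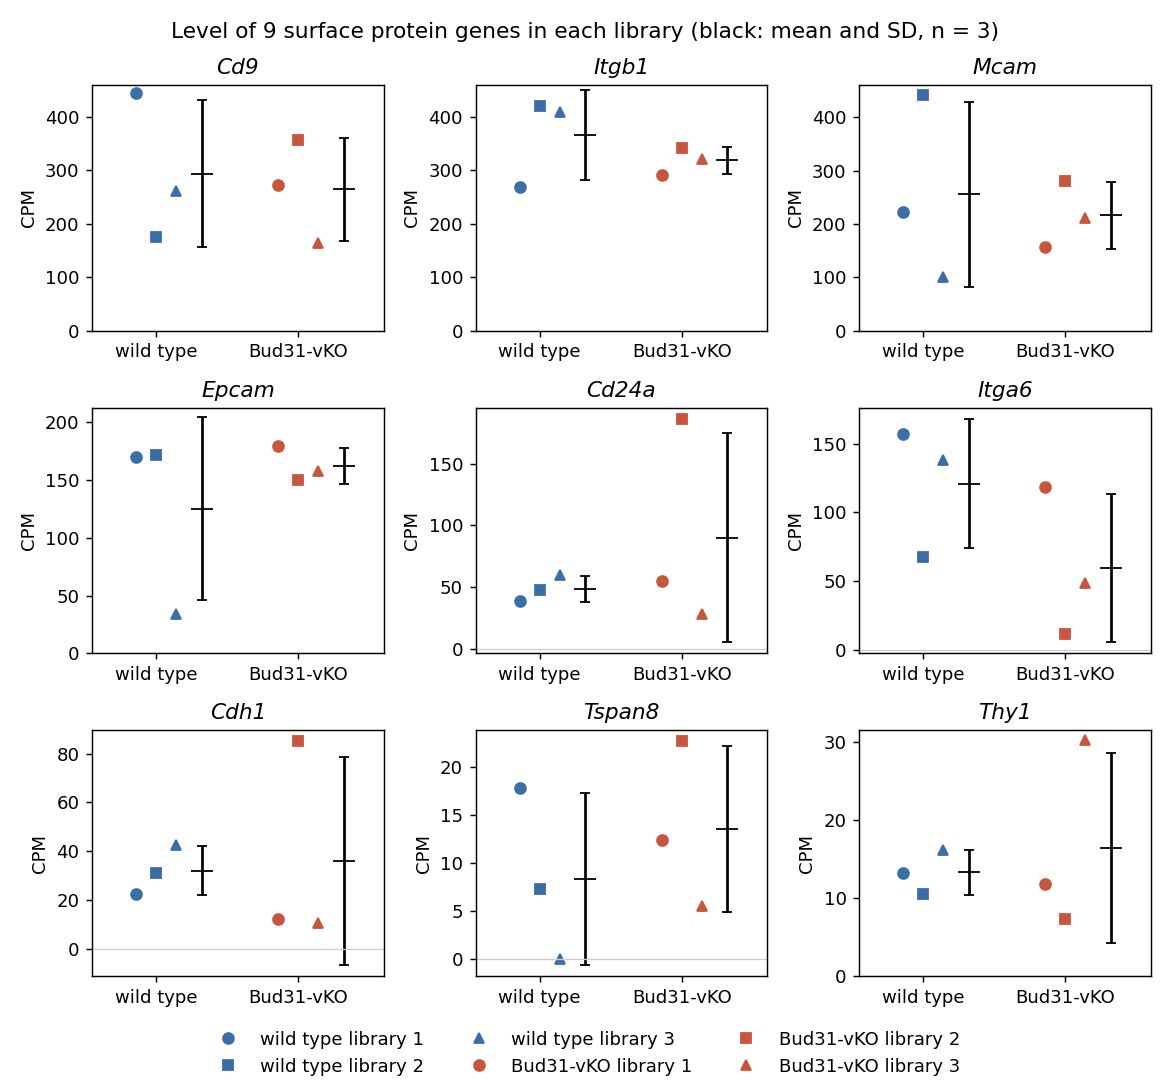
CPM of each surface gene in each library (blue wild type, red Bud31-vKO, marker shape for the library number), with the mean and SD (n = 3) in black. The genotypes overlap in all 9 panels, and single libraries stand apart for Epcam (WT3), Cd24a and Cdh1 (KO2) and Thy1 (KO3).

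None of the 9 genes was called higher or lower by edgeR's quasi-likelihood test (0 of 9, beside 0.0% of all genes tested), and each had an adjusted p of 0.9997. Unadjusted p-values of the 9 ran from 0.222 to 0.867, so 0 of 9 were under 0.05, beside 2.91% of all genes (443). DESeq2 called 0 of 9, beside 0.321% of its genes. The genotypes overlapped for all 9, where 11.2% of all genes did not overlap, 4.76% higher and 6.39% lower in the knockout. The log2 fold change was above 0 for 5 of 9, beside 51.1% of all genes, with a median of 0.16 beside 0.022. Itgb1 had the narrowest 95% interval, and those of Thy1, Cdh1 and Tspan8 reached past 2 on the log2 scale in both directions, so these libraries do not bound the difference of those 3 genes to within 4-fold in either direction.

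**Figure D4:**
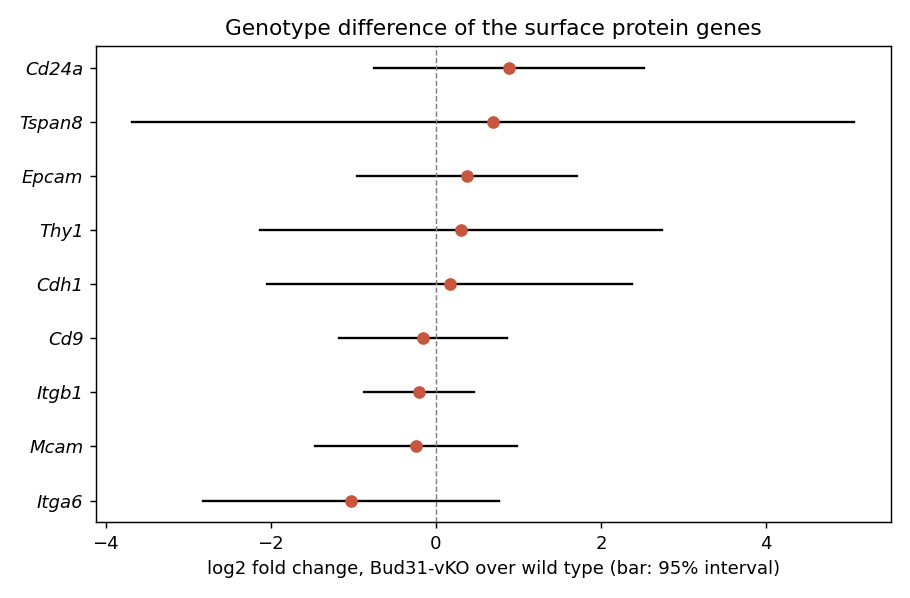
Log2 fold change of Bud31-vKO over wild type (points) with 95% intervals (bars) for the 9 surface genes. Each interval includes 0, from the narrowest for Itgb1 (-0.87 to 0.46) to the widest for Tspan8 (-3.68 to 5.07).

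Each gene was then set against germ cell and stromal RNA of its own library, as CPM per 1000 CPM of the list, without a test, since a permutation of 3 against 3 libraries cannot give a p below 0.1. Relative to germ cell RNA, 8 of 9 genes were higher on average in the knockout, beside 74.6% of all genes, and the median log2 difference was 0.70 beside 0.67, near that of all genes. Itga6 was the exception, at -0.73, and this rested on KO2: without KO2 Itga6 was at 0.13 and Cdh1 was below 0, at -0.70. Without KO1, Itga6 was at -1.62.

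Epcam alone of the 9 did not overlap between genotypes relative to germ cell RNA, where 18.2% of all genes were higher and 1.4% lower without overlap. Its ratio was 33.9, 36.6 and 8.15 in WT1 to WT3 and 77.7, 55.99 and 46.2 in KO1 to KO3. The log2 difference was 1.43, and 0.73 without WT3. For Thy1 the ratio was 2.63, 2.24 and 3.89 in WT1 to WT3 and 5.11, 2.72 and 8.85 in KO1 to KO3, and WT3 lay above KO2. For Itgb1 it was 80.5 ± 23.7 in wild type and 116 ± 18.9 in the knockout (SD, n = 3 each), with overlap.

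Relative to stromal RNA, 7 of 9 genes were higher on average in the knockout, beside 56.0% of all genes, with a median log2 difference of 0.18 beside 0.15. The count was 2 of 9 without WT3, the library with the highest stromal sum, and 3 of 9 without KO2. Itgb1 stood at 25.01 ± 8.87 in wild type and 25.4 ± 7.99 in the knockout per 1000 CPM of stromal RNA (SD, n = 3 each). The ratio of Cd9 was 21.3 ± 15.02 in wild type and 22.2 ± 13.1 in the knockout, and that of Thy1 0.896 ± 0.233 in wild type and 1.16 ± 0.609 in the knockout (SD, n = 3 each). Itga6 had 8.33 ± 4.58 in wild type and 4.33 ± 4.01 in the knockout (SD, n = 3 each), with a log2 difference of -1.26. It was -0.57 without KO2, where Cdh1 was lower at -1.40, and -1.99 without KO1. All 9 overlapped between genotypes on this scale, where 3.92% of all genes were higher and 4.54% lower without overlap.

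**Figure D5:**
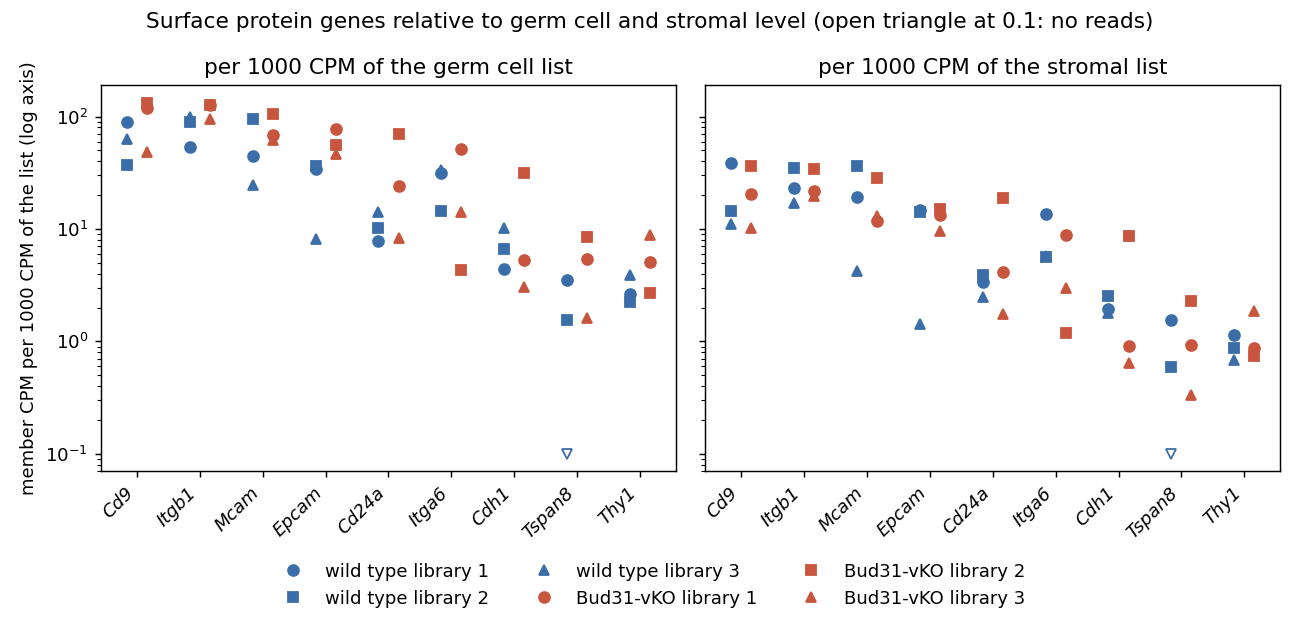
CPM of each surface gene per 1000 CPM of the germ cell list (left) and of the stromal list (right) in each library, on a log axis, with an open triangle for Tspan8 without reads in WT3. On the left, Epcam alone has all 3 knockout points (46.2 or more) above all wild type points (36.6 or less).

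Genes with the most similar pattern over the 6 libraries were sought among tested genes whose mean log2 CPM was 4 or more, by the root mean square difference of centred log2 CPM (smaller is closer). Itgb1 was closest to Tdg (0.0589) and Tmem183a (0.0731), and Epcam to Znhit3 (0.0740) and Mrpl47 (0.0937). Thy1 was closest to Ccdc191 (0.209) and Srrm2 (0.227), and Cd9 to Btg1 (0.186) and Fam114a1 (0.234). For Itga6 the closest were Lum, a matrix proteoglycan of the stromal list (0.178), and Zmat1 (0.204). Lum measured 355, 213 and 306 CPM in WT1 to WT3 and 298, 33.3 and 134 CPM in KO1 to KO3, lowest in KO2 as Itga6 was. For Mcam they were Ccnb1, the cyclin of mitotic entry (0.122), and Pex14 (0.123), and Ccnb1 measured 307, 564 and 137 CPM in WT1 to WT3 and 231, 315 and 280.1 CPM in KO1 to KO3. Cd24a was closest to Sec22a (0.105) and Elac1 (0.197), Cdh1 to Pkmyt1 (0.169) and Ccng2 (0.2), and Tspan8 to Wdr60 (0.165) and Phc3 (0.343). Among the 9 themselves, Cd24a and Cdh1 were the closest pair (0.561), then Epcam and Mcam (0.606). Each gene was set against 8681 or 8682 candidates, whose median difference ran from 0.751 (Itgb1) to 1.98 (Tspan8). The nearest of so many over 6 libraries can be close without a link, and none was tested. All these patterns share the same 6 libraries, which differ in genes detected.

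Of 12 other surface genes used to sort testis cells, 9 had a log2 fold change above 0 and 3 below, with a median of 0.54, and none passed the test. H2-K1 and B2m, which encode class I histocompatibility chains, had the smallest p-values of this list. H2-K1 measured 98.6, 62.4 and 115 CPM in WT1 to WT3 and 447, 769 and 287 CPM in KO1 to KO3, and its reads may be split with similar genes of its family. B2m measured 139, 206 and 90.3 CPM in WT1 to WT3 and 395, 444 and 249 CPM in KO1 to KO3, with a log2 fold change of 1.32 (standard error 0.40). Neither overlapped between genotypes, and both were named for their p-values in these same data. They were the only 2 of the 12 without overlap, beside 11.2% of all genes. The lymphoid sum did not overlap either (13.1, 108 and 106 CPM in WT1 to WT3 and 129.9, 541 and 115 CPM in KO1 to KO3), and its part in these 2 values was not tested.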

How the data were processed

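The 6 Smart-Seq2 libraries were analysed from the whole-number read counts per Ensembl gene that the authors deposited, without normalization. The submitters' processing notes name bcl2fastq and mm10, and aligner, counter, annotation and strand setting are not given in these sources. Symbols, coordinates and exon lengths came from GENCODE M21 (GRCm38), which held 51719 of 51912 identifiers. Totals were 13240704 to 18744466 reads. Genes were filtered with filterByExpr (minimum count 10, minimum total 15), scaled by TMM and tested without covariates in edgeR 4.0.16 (quasi-likelihood F test, Benjamini-Hochberg, 5%), and the procedure was tested on simulated data. CPM use TMM-scaled totals. Standard errors and intervals, from the F statistic, are approximate. Log2 of single genes used 0.5 added CPM. Named were the 9 genes, Kit, Bud31, the 2 nearest genes of each of the 9, the 2 smallest p-values of each gene list and the 2 most abundant genes of each marker list, not all of which are described. The genes and lists were chosen with earlier results of these data known. Alternatives were RLE or library-size scaling, no filter, DESeq2 1.42.0, limma 3.58.1 (voom), a block for library number and fewer libraries.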

Additional observations from a re-analysis of the deposited data

How the results depend on the processing

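None of the 9 genes was called under any of the 13 other settings of the test. Over all genes edgeR called 0 higher and 0 lower (443 at an unadjusted p under 0.05), against 5 and 2 without a filter and 18 and 30 by DESeq2. With 1 library left out, log2 fold changes ran from -0.48 to 0.66 for Thy1, -0.43 to 0.28 for Cd9, -0.054 to 0.66 for Epcam, -0.21 to 1.31 for Cd24a, -0.60 to 0.41 for Mcam and -1.49 to 0.61 for Cdh1, and Itga6, Itgb1 and Tspan8 kept their sign. Without both WT3 and KO2 the value was -0.0090 for Epcam, -0.47 for Tspan8, -0.042 for Cd24a and -1.23 for Cdh1, and with unchanged sign -0.85 for Mcam, -0.49 for Cd9, 0.83 for Thy1 and -0.42 for Itga6. Cdh1 was -0.49 by limma-voom and -0.53 with the replicate block, Tspan8 2.95 and 2.24, and Itga6 -1.48 and -1.49. The unadjusted edgeR p of Itga6 was 0.036 with the replicate block and 0.035 without KO1. Genes above 0 numbered 3 to 6 of 9 with 1 library left out and 1 without both WT3 and KO2. Genes higher relative to stromal RNA numbered 2 to 8 of 9 with 1 library left out, and relative to germ cell RNA 7 to 8. The cause was not tested. Libraries of the same number deviated from their group means with correlations across genes of 0.19, 0.041 and -0.076, and 3 of 6 libraries correlated best with their own number. With the replicate block edgeR called 0 genes higher and 0 lower.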

Other observations

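Ilk, the integrin-linked kinase gene, was listed at 0 in all 6 libraries. Of its 2744 exon bases, 2461 overlap exons of Rrp8 or Taf10 on the opposite strand. Cldn4, a claudin among the EPCAM partners, had 166 reads in WT2 and 275 in KO2, and 0 to 2 reads in the other 4 libraries. Sertoli cell markers, led by Clu and Wt1, summed to 1650.0 CPM in KO1 against 129 to 459 CPM elsewhere. Epcam was highest in KO1 at 179 CPM, and WT2, with the lowest Sertoli sum (129 CPM), had 172 CPM of Epcam. WT3, lowest in Epcam (33.9 CPM), had a Sertoli sum of 373 CPM, and a relation of Epcam to these markers was not tested. Ilk, Cldn4 and the Sertoli sum were picked out after their values were seen.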
